A study of Homo sapiens with 6 samples.

Results

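The genes described here are 8 genes of the red cell membrane and surface: GYPB, GYPC, SLC4A1, EPB42, RHAG, ANK1, EPB41 and EPOR. They were found by symbol in the count files, which list 60609 genes, of which 34998 had a count in any library. All 8 had a single entry, and all 8 passed the minimum of a mean normalized count of 5, so none was left out of the test. A normalized count is the read count of a gene divided by its library's size after TMM scaling, relative to the geometric mean of the 6 library sizes.

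To ask what the attachment of TRRAP to the TIP60 acetyltransferase and remodelling complex does to steady-state RNA, poly(A) RNA was sequenced from K562, an established human leukaemia line with erythroid features. In all cells the endogenous EP400, the scaffold ATPase of TIP60, was homozygously fused to a degradation tag in 1 parent clone. Before harvest every culture received 500 nM dTAGV-1, which triggers degradation of the tagged protein, for 24 h. For 3 libraries (replicates 1 to 3) the cells expressed wild-type EP400 from the AAVS1 locus (WT), and for the other 3 they expressed EP400 from the same locus without the SANT and HD domains that hold TRRAP (Delta-TRRAP). Each complemented line was 1 clone, so clone and genotype cannot be told apart, and the p-values measure the spread between libraries and not between clones.

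The red cell membrane is a lipid bilayer held to a meshwork of spectrin and short actin filaments. Ankyrin ties spectrin to a complex built on band 3 and the Rh proteins, and protein 4.1 ties the spectrin-actin junctions to glycophorin C. Erythroid precursors make the parts of this membrane while they mature, and the erythropoietin receptor carries the hormone signal that keeps those precursors alive and dividing. Several of the parts carry blood group antigens, and inherited defects in band 3, ankyrin, spectrin or protein 4.2 cause spherocytic anaemia.

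Between 35076835 and 42616061 reads per library were counted in genes. The mitochondrial share was 3.18% to 3.71% in the WT libraries and 5.07% to 6.24% in the others, and 25668 to 25998 genes were detected in the WT libraries against 27928 to 28033. EP400, the targeted gene, had a normalized count of 5100 in WT and 5520 in Delta-TRRAP, with an adjusted p of 0.354 by edgeR. A gene-level count sums locus and transgene and does not show the deleted domains, so it checks no label. The labels call the cells lymphoblasts. Summed over 12 erythroid markers, the normalized count lay between 227200 and 228300 in WT and between 159300 and 160500 in Delta-TRRAP, most of it TFRC. That of 10 lymphoid markers was 514 to 525 and 446 to 486, with MS4A1 at 0. The erythroid list held 5 genes called higher (HBE1, HBZ, HBA1, HBA2 and ALAS2) and 1 called lower (TFRC) in Delta-TRRAP. By the same rule, given below, 16.2% of all tested genes were called higher and 6.34% lower. Of 10 megakaryocyte markers, 5 were at 0 in every library, GP9, GP1BA, GP1BB and PF4 among them, 3 were tested and 1, ITGA2B, was called lower (666 to 88.6). The list summed to between 795 and 870 in WT and between 220 and 265 in Delta-TRRAP. Of 10 fibroblast markers, LUM and PDGFRA were at 0, 5 were tested and 3 (COL1A2, PDGFRB and POSTN) were called higher. Those 3 had WT means under the minimum of 5 and entered the test only through their Delta-TRRAP counts. The fibroblast list summed to between 35.9 and 58.5 in WT and between 926 and 971 in Delta-TRRAP, of which COL1A2 made up a mean of 868. The part of these shifts in the results on the 8 genes was not tested. In bulk RNA, a change in the share of cells that express a gene and a change in RNA per cell cannot be told apart.

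Band 3 and protein 4.2 RNA were far higher in Delta-TRRAP, 19.8-fold and 10.3-fold. Glycophorins B and C, ankyrin and protein 4.1 were also higher, by 1.65-fold to 1.99-fold. The erythropoietin receptor did not pass the test, at 1.12-fold, and the group means of RHAG differed by less than the spread between replicates. A call here means an edgeR quasi-likelihood F test with a p of at most 0.01 after Benjamini-Hochberg adjustment over every gene tested, together with a fold of at least 2. By that rule 2 of the 8 genes (25%) were called, against 22.5% of the 19114 genes tested. The count of calls lay close to that share, which takes in genes with low counts. The share among genes at the level of these 8 is not given. Both called genes were higher, as were 16.2% of tested genes, and 0 were lower, against 6.34%. At the same adjusted p and any fold, where 58.6% of tested genes passed, 6 of the 8 were higher and 0 lower, against 29.6% of tested genes higher and 28.9% lower. The groups did not overlap in 71.1% of tested genes. In 7 of the 8 genes all Delta-TRRAP libraries lay above all WT libraries, a separation that 36.0% of tested genes showed in that direction. The median log2 fold change of the 8 genes was 0.89, against 0.01 over all tested genes.

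**Figure D1:**
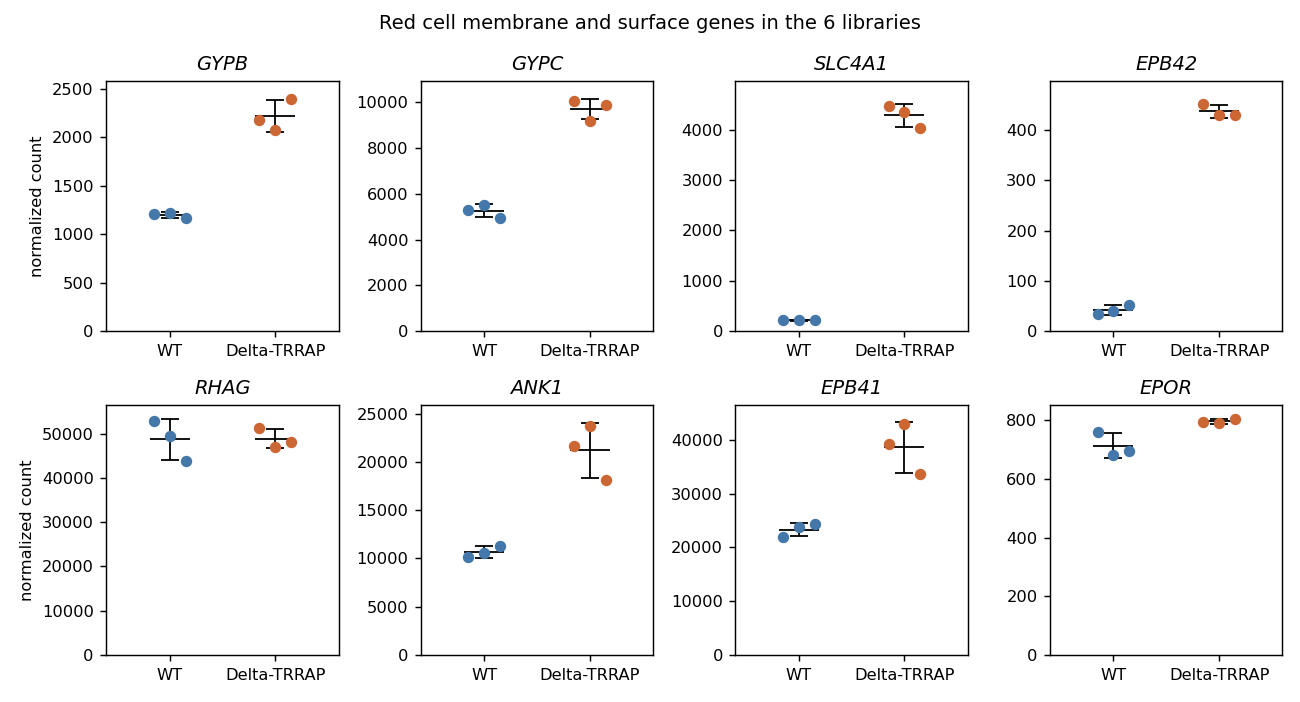
Normalized count (linear axis from 0) of each of the 8 genes in the 3 WT and 3 Delta-TRRAP libraries, in the order of replicates 1 to 3, with the mean as a long line and the SD as bars. SLC4A1 and EPB42 sit near the axis in WT and far above it in Delta-TRRAP, GYPB, GYPC, ANK1 and EPB41 separate by less, and the RHAG groups overlap.

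SLC4A1 (ENSG00000004939.15, GRCh38 chr17:44248390-44268141, minus strand) encodes band 3, the chloride-bicarbonate exchanger that is the main protein of the red cell membrane and the anchor of ankyrin. Its normalized counts were 220.2, 216.1 and 212.5 in WT replicates 1 to 3. In Delta-TRRAP replicates 1 to 3 they were 4469, 4350 and 4025. The groups were far apart, and the lowest Delta-TRRAP library stood well clear of every WT library. The mean rose from 216 ± 3.89 to 4281 ± 230 (SD, n = 3), a log2 fold change of 4.31 ± 0.07 (SE, 95% interval 4.17 to 4.45) with an adjusted p of 3.98e-16 by edgeR. SLC4A1 ranked 414 of the 19114 tested genes by log2 fold change. No other gene of the count files overlapped it, and none of the 75-base windows of its longest transcript was shared with another gene's transcripts.

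EPB42 (ENSG00000166947.14, chr15:43197227-43221018, minus strand) encodes protein 4.2, which binds band 3 and ankyrin and steadies their contact. WT libraries had normalized counts of 33.8, 40.5 and 52.3. Those of Delta-TRRAP were 453, 429 and 429. EPB42 was the least abundant of the 8 genes in WT and the most variable there, with a coefficient of variation of 22.2%, yet no library of one group came near the other group. Its mean went from 42.2 ± 9.39 to 437 ± 13.8 (SD, n = 3), a log2 fold change of 3.37 ± 0.12 (SE, 95% interval 3.10 to 3.63, adjusted p = 3.32e-12 by edgeR). The WT values rest on 33, 42 and 51 reads and the Delta-TRRAP values on 463, 449 and 406. A same-strand RNA gene, AC068724.4, shares 15.8% of the 75-base windows of the longest EPB42 transcript. That gene had 0 reads in the WT libraries together and 2 in the Delta-TRRAP libraries, and reads in shared exons are assigned to neither gene by the counting mode used.

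The bases upstream of EPB42 and RHAG are shown because EPB42 is the one called gene with a matched window and RHAG the gene with the smallest change, and because both windows hold a hexamer of the GATA type, the class of site read by the erythroid factor GATA1. Each run is the 250 bases before the RefSeq transcription start on GRCh38.p14, read 5′ to 3′ along the gene's own strand, with the hexamers in capitals. The EPB42 window is chr15:43221019-43221268 and the RHAG window is chr6:49636840-49637089, both on the minus strand.
EPB42: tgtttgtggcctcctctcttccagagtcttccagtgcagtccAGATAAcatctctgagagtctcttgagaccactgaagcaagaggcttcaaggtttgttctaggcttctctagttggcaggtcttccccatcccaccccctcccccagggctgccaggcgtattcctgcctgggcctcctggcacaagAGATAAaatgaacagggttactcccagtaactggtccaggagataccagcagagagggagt
RHAG: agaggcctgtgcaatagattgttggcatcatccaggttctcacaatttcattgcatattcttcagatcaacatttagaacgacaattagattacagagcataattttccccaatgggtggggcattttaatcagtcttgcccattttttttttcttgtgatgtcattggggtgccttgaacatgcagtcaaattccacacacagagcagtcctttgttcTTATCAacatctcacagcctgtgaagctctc

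The search used the hexamer AGATAA, its variant TGATAA with another first base, its variant AGATAG with another last base and the variant TGATAG with both, on both strands, and at least 1 of them lay in 22.3% of the 35116 RefSeq windows of this length. EPB42 had AGATAA 208 to 203 and 61 to 56 bases before the start. RHAG had TTATCA, which is TGATAA on the other strand, 31 to 26 bases before the start. CACCC, the core of sites of the KLF1 type, was searched on both strands and lay in 54.7% of all windows. It was found in EPB42 116 to 112 bases and, on the other strand, in RHAG 136 to 132 and 82 to 78 bases before the start. Windows of GYPB and GYPC also held CACCC, and those of EPB41 and EPOR did not. A hexamer was also found in windows of GYPB, GYPC, EPB41 and EPOR, of which GYPB and EPB41 each have 2 listed starts and 1 EPB41 window held none. SLC4A1 and ANK1 had no matched window.

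RHAG (ENSG00000112077.16, chr6:49605175-49636839, minus strand) encodes the Rh-associated glycoprotein, an ammonia and gas channel that the RhD and RhCE antigens need to reach the surface. WT replicates 1 to 3 had normalized counts of 53004, 49522 and 43861. Delta-TRRAP replicates had 51313, 47121 and 48231. The Delta-TRRAP values lay within the range of the WT values, so the groups overlapped in full. The means were 48795 ± 4615 and 48888 ± 2172 (SD, n = 3), with a log2 fold change of 0.00 ± 0.07 (SE) and an adjusted p of 0.974 by edgeR. The 95% interval ran from -0.14 to 0.14, which bounds a difference between 0.91-fold and 1.10-fold under this scaling. With library size scaling, which moved the median of all tested genes from 0.01 to 0.16, RHAG stood at 0.16 with an adjusted p of 0.0395, so its position relative to that median stayed near 0. Over all alternatives its adjusted p ran from 0.0395 to 0.997.

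The genes of the Rh antigens themselves rose. RHD went from a mean of 437 to 3266 and RHCE from 260 to 2774, log2 fold changes of 2.90 ± 0.06 and 3.42 ± 0.07 (SE, adjusted p = 3.19e-15 and 3.07e-15 by edgeR). Between these near-identical neighbours 7.60% of RHD and 9.27% of RHCE windows of 75 bases, taken from the longest transcript of each, were shared, and only uniquely mapping reads were counted. CD47, the "do not eat me" signal that sits with the Rh complex, fell from 7212 to 2654, a log2 fold change of -1.44 ± 0.05 (SE, adjusted p = 1.79e-12 by edgeR). On the scale of TPM (a level per length, the counts per kilobase of exon rescaled to the same total in every library), RHAG stood at 85.5, 77.8 and 70.2 times the sum of RHD and RHCE in the WT libraries. In the Delta-TRRAP libraries that ratio was 8.96, 8.62 and 8.65. An exact permutation test of 3 against 3 libraries cannot give a two-sided p below 0.10, and none is given for this or the other ratios.

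Glycophorins are the sialic acid coated proteins that give the red cell its negative surface charge. GYPB (ENSG00000250361.8, chr4:143996104-144019380, minus strand), which carries the S and s antigens, had normalized counts of 1210, 1218 and 1164 in WT. It had 2181, 2073 and 2395 in Delta-TRRAP. All Delta-TRRAP libraries lay above all WT libraries, and the log2 fold change was 0.89 ± 0.06 (SE, 95% interval 0.76 to 1.01, adjusted p = 3.22e-09 by edgeR). The mean rose from 1197 ± 29.2 to 2217 ± 164 (SD, n = 3), or 1.85-fold, which is under the fold of 2 needed for a call.

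GYPC (ENSG00000136732.16, chr2:126656133-126696667, plus strand) encodes glycophorins C and D, which hold protein 4.1 to the membrane and are not related in sequence to glycophorin B. It had normalized counts of 5302, 5506 and 4961 in WT. In Delta-TRRAP it had 10041, 9193 and 9855. The groups did not overlap, and the mean rose from 5256 ± 275 to 9696 ± 446 (SD, n = 3), 1.84-fold. Its log2 fold change of 0.88 ± 0.06 (SE, adjusted p = 1.55e-09 by edgeR) was close to that of GYPB although the genes lie on different chromosomes.

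GYPE, a relative of GYPB in the same cluster on chromosome 4, went from 3662 to 5153, a log2 fold change of 0.49 ± 0.05 (SE, adjusted p = 6.44e-07 by edgeR). Of the 75-base windows of the longest GYPB transcript 0.358% were shared with another gene, and of GYPE windows 0.

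The genes of the linkers to the membrane skeleton, ANK1 and EPB41, both rose by under 2-fold, and their libraries deviated in the same order. ANK1 (ENSG00000029534.20, chr8:41653220-41896741, minus strand) encodes erythroid ankyrin, the link between spectrin and band 3. Its normalized counts were 10114, 10532 and 11284 in WT. They were 21688, 23697 and 18158 in Delta-TRRAP. The groups were well separated, but the Delta-TRRAP libraries spread widely, with a coefficient of variation of 13.2%, the highest of the 8 genes in that group. The mean went from 10643 ± 593 to 21181 ± 2804 (SD, n = 3), 1.99-fold, with a log2 fold change of 0.99 ± 0.08 (SE, 95% interval 0.82 to 1.16, adjusted p = 2.40e-08 by edgeR). ANK1 therefore missed the call by the fold alone. Without Delta-TRRAP replicate 3 its log2 fold change was 1.09, without WT replicate 3 it was 1.02, and it was called in both.

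EPB41 (ENSG00000159023.21, chr1:28887091-29120046, plus strand) encodes protein 4.1R, which fastens spectrin to actin and to glycophorin C. WT libraries had normalized counts of 21924, 23724 and 24314. Delta-TRRAP libraries had 39249, 42875 and 33624. The groups did not overlap, and as in ANK1 Delta-TRRAP replicate 2 was the highest and replicate 3 the lowest. The mean rose from 23321 ± 1245 to 38583 ± 4661 (SD, n = 3), 1.65-fold, a log2 fold change of 0.73 ± 0.08 (SE, adjusted p = 4.39e-07 by edgeR).

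The shared order of the libraries in ANK1 and EPB41 was also seen in genes with long transcripts as a class. Deviations from the group mean of log2 CPM (log2 of counts over the TMM-scaled library size) were 0.04, 0.17 and -0.21 for ANK1 in Delta-TRRAP replicates 1 to 3. They were 0.03, 0.16 and -0.19 for EPB41, and 0.07, 0.20 and -0.27 for SPTB, which encodes beta-spectrin. Over 1101 expressed genes with a longest transcript of 8 kb or more, the class of ANK1 and SPTB, the median deviations were -0.01, 0.10 and -0.09. EPB41, with a longest transcript of 6388 bases, falls in the class of 6 to 8 kb. Its 1325 genes had smaller medians, -0.003, 0.053 and -0.047. Over 2128 genes under 2 kb they were 0.02, -0.08 and 0.05, the opposite order, and GYPB, whose longest transcript is 632 bases, had -0.02, -0.09 and 0.11. When a smooth trend of each library's deviation on transcript length was removed, the log2 fold changes were 0.96 for ANK1, 0.71 for EPB41, 0.99 for GYPB and 0.92 for GYPC.

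**Figure D2:**
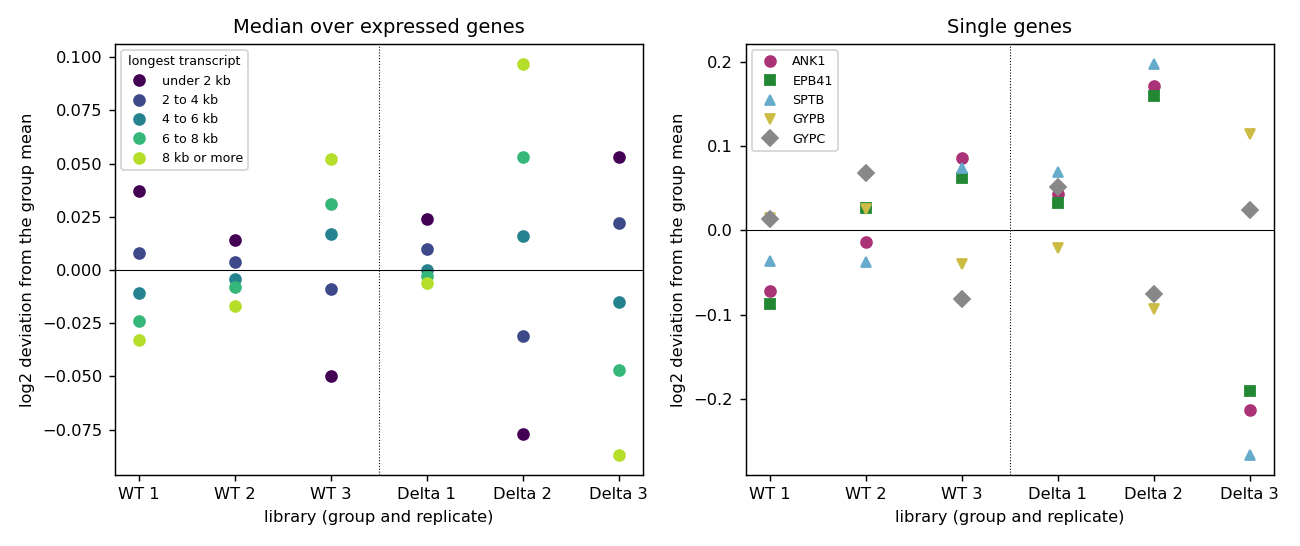
Deviation of log2 CPM from the group mean (y axis, log2 units) in each of the 6 libraries (x axis), as the median over expressed genes in 5 classes of longest transcript (left) and for ANK1, EPB41, SPTB, GYPB and GYPC (right). In Delta-TRRAP replicate 3 the class of 8 kb or more lies at -0.09 and that of 6 to 8 kb, which holds EPB41, at -0.047. ANK1, EPB41 and SPTB lie at -0.21, -0.19 and -0.27, while the class under 2 kb lies at 0.05 and GYPB at 0.11.

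Of 11 other genes of the skeleton and its junctions, all tested, 2 were called higher and 0 lower, and at any fold 5 were higher and 4 lower at the adjusted p. The share called was 18.2%, against 22.5% of all tested genes. At any fold 29.6% of all tested genes were higher and 28.9% lower at the adjusted p. The median log2 fold change of the skeleton list was 0.19. The called genes were SPTB, which went from 3410 to 8720 (log2 fold change 1.36 ± 0.09, SE, adjusted p = 2.65e-09 by edgeR), and DMTN, the actin-bundling dematin, which went from 1106 to 5634 (2.35 ± 0.05, adjusted p = 1.81e-14). TMOD1, the tropomodulin that caps the short actin filaments, rose by a log2 fold change of 0.88 ± 0.05 (SE), while ADD2, beta-adducin, fell by 0.75 (SE 0.06) on the log2 scale, with adjusted p of 6.23e-10 and 1.20e-08 by edgeR.

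EPOR (ENSG00000187266.14, chr19:11377207-11384342, minus strand) encodes the erythropoietin receptor, the only signalling receptor of the set. Its normalized counts were 761, 683 and 697 in WT. They were 795, 790 and 806 in Delta-TRRAP. The Delta-TRRAP libraries lay just above all WT libraries and were the tightest group measured among the 8 genes, with a coefficient of variation of 1.03%. The means were 714 ± 41.7 and 797 ± 8.20 (SD, n = 3), a log2 fold change of 0.16 ± 0.06 (SE, 95% interval 0.03 to 0.29) with an adjusted p of 0.0318 by edgeR, so EPOR did not pass. It passed at any fold in the same fit at the alternative threshold of 0.05. At the threshold of 0.01 it passed at any fold with library size scaling (0.32, adjusted p = 0.000293) and with the length trend removed (0.18, adjusted p = 0.00996). Over all alternatives its adjusted p ran from 0.000293 to 0.16. RGL3, which overlaps EPOR on the same strand, had 1 read over the WT libraries and 7 over the Delta-TRRAP libraries.

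The other genes of the erythropoietin pathway moved both ways. Of 14 genes, 13 were tested, of which 2 were called higher and 2 lower, and at any fold 6 were higher and 6 lower. The share called was 30.8%, against 22.5% of all tested genes, of which 58.6% passed at any fold, and the median was 0.09. CISH and SOCS1, inhibitors that STAT5 switches on after receptor signalling, rose from 1157 to 3321 and from 62.0 to 174, log2 fold changes of 1.52 ± 0.05 and 1.49 ± 0.12 (SE, adjusted p = 9.32e-13 and 3.36e-08 by edgeR). STAT5A, the transcription factor itself, fell from 21980 to 10661, a log2 fold change of -1.04 ± 0.05 (SE), and PTPN6, the phosphatase that ends the signal, fell from 88.7 to 38.9, a change of -1.19 ± 0.17 (SE). The adjusted p were 4.88e-11 and 1.15e-05 by edgeR. With library size scaling STAT5A stood at -0.89 and was not called. JAK2, the kinase bound to the receptor, had means of 3601 and 3845 and did not pass, with an adjusted p of 0.121 by edgeR. JAK2 passed at any fold with library size scaling (0.25), as did SLC4A2 (0.24) and KLF1 (0.25). EPO was not tested, with a mean normalized count of 0.684 in WT and 0.652 in Delta-TRRAP.

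Of 25 other red cell surface genes, 24 were tested, and 7 were called higher and 3 lower. That is 41.7% of the list, against 22.5% of all tested genes, and the list's median log2 fold change was 0.55. Higher besides RHD and RHCE were ART4, carrier of the Dombrock antigens, from 4.02 to 121 (4.87 ± 0.27, SE), and ABCG2, the Junior antigen transporter, from 17.7 to 173 (3.28 ± 0.17). ART4 had a WT mean under the minimum of 5 and entered the test only through its Delta-TRRAP counts. ERMAP, SEMA7A and SLC2A1, which carry the Scianna and John Milton Hagen antigens and import glucose, were the others called higher. Lower besides CD47 were AQP1, the water channel with the Colton antigens, from 758 to 237 (-1.67 ± 0.07, SE), and KCNN4, the calcium-gated potassium channel, from 824 to 314 (-1.39 ± 0.07). The adjusted p of ART4, ABCG2, AQP1 and KCNN4 were 3.21e-10, 2.34e-10, 2.12e-11 and 1.98e-10 by edgeR. KEL, the Kell antigen, and XK, its partner in the membrane, had log2 fold changes of 0.89 ± 0.05 and 0.83 ± 0.05 (SE), close to those of GYPB and GYPC, with adjusted p of 6.09e-10 and 1.04e-09 by edgeR.

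**Figure D3:**
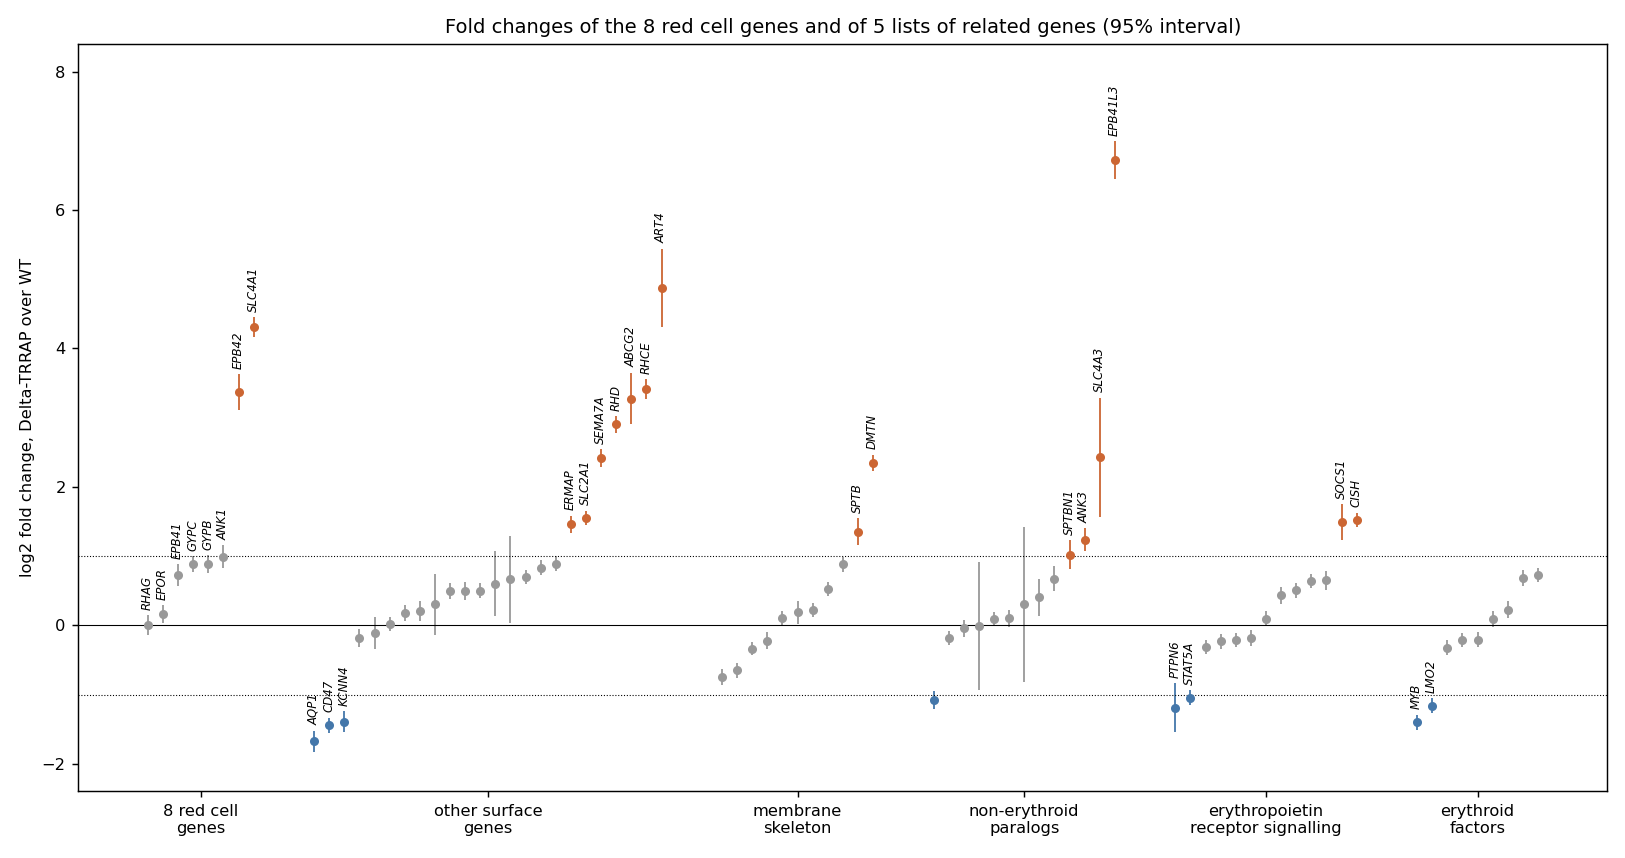
Log2 fold change of Delta-TRRAP over WT (y axis) with its 95% interval for the 8 genes and the tested genes of 5 related lists, each ordered by value. Orange marks genes called higher, blue genes called lower and grey genes not called, and the dotted lines mark a fold of 2. SLC4A1 and EPB42 lie at 4.31 and 3.37, RHAG and EPOR near 0, and the other 4 between 0.73 and 0.99.

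Members of the same protein families that serve other tissues were compared next. Of 15 such paralogs 13 were tested, 4 were called higher and 1 lower (38.5%, against 22.5% of all tested genes), and their median log2 fold change was 0.30. SLC4A2, the broadly expressed anion exchanger, had means of 8522 and 9048 and did not pass (0.09 ± 0.05, SE, adjusted p = 0.123 by edgeR). SLC4A3 rose from 3.38 to 18.6 (2.43 ± 0.40, SE, adjusted p = 6.69e-05). With a WT mean under the minimum of 5, SLC4A3 entered the test only through its Delta-TRRAP counts. In TPM, SLC4A2 stood at 26.2 to 27.2 times SLC4A1 in the WT libraries and at 1.41 to 1.48 times in the Delta-TRRAP libraries. This ratio depends on the length used. By the longest transcript, mean TPM in WT and Delta-TRRAP was 119.7 and 137.2 for SLC4A2 and 3.02 and 64.6 for SLC4A1. EPB41L3, a protein 4.1 relative of brain and epithelia, went from 13.1 to 1388 (6.72 ± 0.13, SE, adjusted p = 3.10e-15), far beyond EPB41 itself. ANK3, ankyrin-G, rose from 1569 to 3698 (1.24 ± 0.08, adjusted p = 1.45e-09), all by edgeR. TGM2, the transglutaminase to whose family protein 4.2 belongs, had a log2 fold change of -0.19, against 3.37 for EPB42.

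Erythroid transcription factors showed 0 called higher and 2 lower of 9 tested out of 10, a share of 22.2% against 22.5% of all tested genes, with a median log2 fold change of -0.21. At any fold 3 were higher and 5 lower at the adjusted p, against 29.6% and 28.9% of all tested genes. MYB, the factor of proliferating progenitors, fell from 15103 to 5723 (-1.40 ± 0.05, SE, adjusted p = 3.79e-12 by edgeR) and LMO2, the bridge of the GATA1 complex, from 5132 to 2292 (-1.16 ± 0.05, adjusted p = 3.28e-11). GATA1 had a log2 fold change of -0.21 ± 0.05 (adjusted p = 0.0025 by edgeR), ranging from -0.24 to -0.05 over all settings tried, and with library size scaling it did not pass (adjusted p = 0.402). KLF1, a direct regulator of many red cell genes, had means of 3682 and 3922 (adjusted p = 0.139 by edgeR), and TAL1 rose from 6522 to 10753 (0.72 ± 0.05, adjusted p = 2.65e-09 by edgeR).

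Levels were compared between genes only per length, in TPM over the annotated exons. RHAG was by far the most abundant, at 1765 ± 149 TPM in WT and 1859 ± 108 in Delta-TRRAP (SD, n = 3), above 99.8% of detected genes in WT and 99.9% in Delta-TRRAP. In WT it was followed by GYPC (139 ± 6.96), EPB41 (111 ± 7.23), ANK1 (92.2 ± 6.12), GYPB (59.7 ± 1.25), EPOR (22.1 ± 1.04), SLC4A1 (4.02 ± 0.030) and EPB42 (1.37 ± 0.32). No neighbours in that order overlapped in WT over the 3 libraries. In Delta-TRRAP SLC4A1 passed EPOR, and the order after RHAG was GYPC (269 ± 10.9), EPB41 (193.5 ± 30.3), ANK1 (193.2 ± 32.4), GYPB (116 ± 4.13), SLC4A1 (83.6 ± 7.26), EPOR (25.9 ± 0.71) and EPB42 (14.9 ± 0.81). There, EPB41 and ANK1 did not differ beyond their spread, and the other neighbours were separate.

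SLC4A1 moved from the level of the 56.8th to that of the 92.5th percentile of detected genes, and EPB42 from the 45.7th to the 72.8th. As a share of the summed TPM of the 8 genes, SLC4A1 lay between 0.175% and 0.196% in WT and between 2.92% and 3.13% in Delta-TRRAP. RHAG made up between 78.7% and 82.0% of that sum in WT and between 66.1% and 68.3% in Delta-TRRAP, although its own level overlapped between groups. The ratio of SLC4A1 to EPB42 in TPM was 3.73, 3.05 and 2.32 in WT and 5.65, 5.80 and 5.37 in Delta-TRRAP, so the gene of the exchanger gained more than that of its binding partner.

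**Figure D4:**
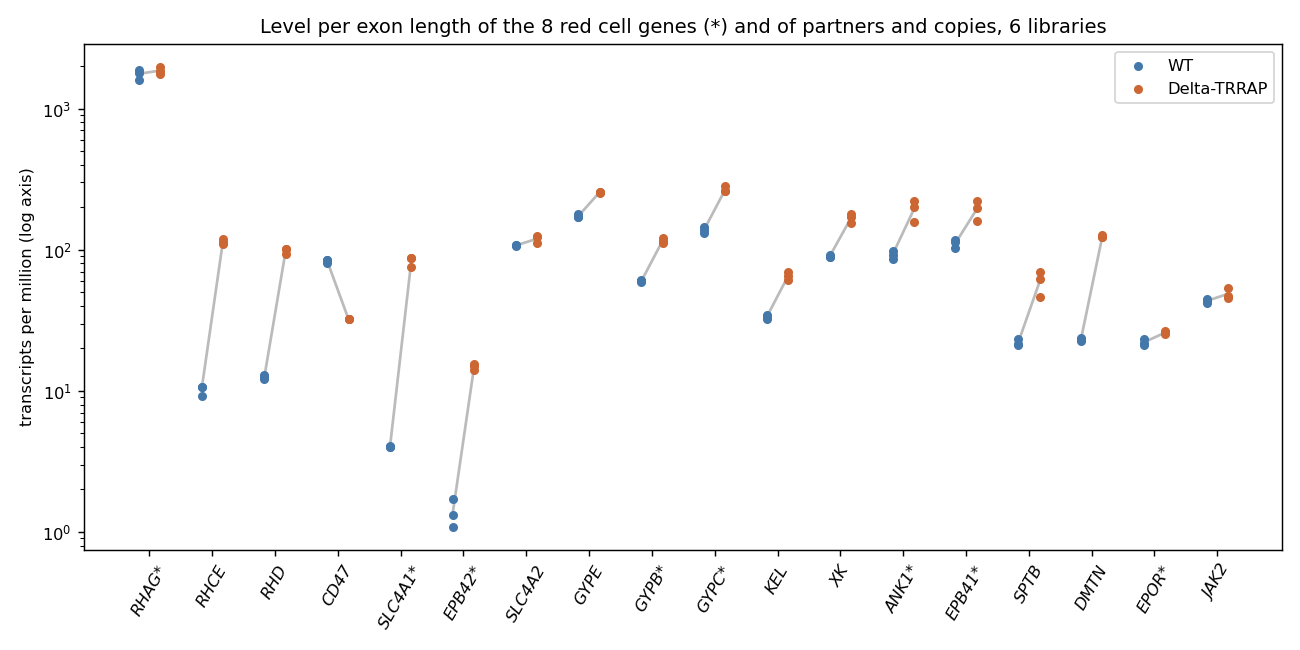
TPM (log axis) of the 8 genes, marked by an asterisk, and of 10 partners and relatives in the 3 WT and 3 Delta-TRRAP libraries, with a grey line joining the group means. RHAG has means of 1765 and 1859, RHCE, RHD, SLC4A1 and EPB42 rise steeply, and CD47 falls from 83.4 to 32.2.

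For each of the 8 genes the most similar profile was sought among 11461 genes, by the Euclidean distance of log2 CPM centred on its mean over the 6 libraries. The nearest were ADCK1 to GYPB (distance 0.0685), GSTP1 to GYPC (0.0708), IL10RA to SLC4A1 (0.228), MAGEC1 to EPB42 (0.266), NAA38 to RHAG (0.0605), NBAS to ANK1 (0.0849), ARHGEF12 to EPB41 (0.077) and WHAMMP3 to EPOR (0.0496). SLC4A1 and EPB42, with the largest changes, had the most distant nearest profiles, and none of the 8 genes was nearest to another of them.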

How the data were processed

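Poly(A) RNA was measured by stranded RNA-seq in 3 WT and 3 Delta-TRRAP libraries, grouped by sample title. The authors aligned reads to hg38 with STAR, kept uniquely mapping reads and deposited raw counts per gene made with htseq-count (HTSeq 2.0.2, reverse-stranded, union mode) on GENCODE genes. The series also holds a table of normalized values, with 3 columns of samples from another condition, and a table of the authors' fold changes and p-values, and neither was used.

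The test was that of edgeR 4.0.16 under R 4.3.3 (TMM, quasi-likelihood F test, group as the only term) over the 19114 of 34998 genes with a mean normalized count of 5 or more, with Benjamini-Hochberg adjustment over all of them. Thresholds follow the study's methods. Log2 fold changes carry standard errors and 95% intervals of the fit. On counts simulated for this comparison over 19114 genes, 99 of 100 genes changed 3-fold and 100 of 100 changed 4-fold were called, with 0 false calls. Recovery near the fold of 2 needed for a call was not measured. Far fewer genes were changed there than the 4307 called in the data.

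TPM was computed from the counts and union exon lengths of GENCODE release 44 on GRCh38, the assembly of the counts though not the authors' release. Depth was 35076835 to 42616061 counts per library. Promoter windows came from RefSeq (GRCh38.p14), in which 6 of the 8 genes matched.

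The 8 genes and the lists were chosen with earlier results of these data known. Named genes were the 8 genes, SPTB, and from each of the lists the called genes with the largest changes. Some genes that this rule names are not reported here. GYPE, RHD, KEL, XK, ADD2, TMOD1, SLC4A2, TGM2, JAK2, GATA1, KLF1, TAL1, ERMAP, SEMA7A, SLC2A1, EP400, EPO and the genes named in marker lists were named after their values were seen. Alternatives were DESeq2 1.42.0, other scalings, filters and thresholds, a replicate block, leaving out each library, and, chosen after seeing the data, removal of the length trend.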

Additional observations from a re-analysis of the deposited data

How the results depend on the processing

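The 8 genes called numbered 2 (SLC4A1 and EPB42) in most settings, 3 with ANK1 added by DESeq2, by RLE scaling or without WT or Delta-TRRAP replicate 3, 5 by library size scaling and 6 at a fold of 1.5. Of the 19114 tested genes, 4307 were called in the main fit. There were 3983 by DESeq2, 4313 by RLE scaling, 4482 by library size scaling and 6802 at a fold of 1.5. ANK1 was at 1.01 by DESeq2, 1.00 by RLE scaling, 1.15 by library size scaling and 0.99 at the fold of 1.5, and from 0.91 to 1.09 without single libraries. GYPB and GYPC were called with library size scaling (1.05 and 1.04) and at a fold of 1.5 (0.89 and 0.88), as was EPB41 at a fold of 1.5 (0.73). RHAG turned to -0.084 without WT replicate 3 and to -0.034 without Delta-TRRAP replicate 1, within a range of -0.084 to 0.051 over the fits without single libraries. Genes called over all tested fell to 1969 (1147 higher) with a minimum mean of 50 and rose to 6802 (2722 lower) at a fold of 1.5. Fewer genes were tested at the minimum of 50, and the share of them that was called is not given. At that fold the skeleton list had 5 calls among 11 tested genes and the erythroid factors 4 among 9. By the length of the longest transcript, TPM in WT and Delta-TRRAP was 131 and 262 for GYPB, 201 and 401 for GYPC, 3.02 and 64.6 for SLC4A1, 253 and 452 for EPB41 and 20.5 and 24.7 for EPOR, and 13.4 for EPB42 in Delta-TRRAP, so EPB41 passed GYPC and GYPB passed ANK1. The same replicate numbers did not pair the libraries (correlations of deviations -0.01, -0.04 and -0.02), and with the replicate number as a block 2 of the 8 genes were called. Each group is 1 clone with 3 libraries. The causes of these differences were not tested where not stated.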

Other observations

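Of the tested genes closest to the 8 genes, 1 towards lower and 1 towards higher coordinates of each and including genes that overlap or lie inside them, 5 of 16 were called, all higher in Delta-TRRAP, against 22.5% of all tested genes called and 16.2% called higher. AC003043.2 and CCDC151 had WT means under the minimum of 5 and entered the test only through their Delta-TRRAP counts. AC003102.1, 24.7 kb from SLC4A1 on the side of lower coordinates, had mean normalized counts of 38.7 in WT and 198 in Delta-TRRAP, and AC003043.2, 8.2 kb away on the other side, had 0.342 and 24.2. CRISP3, 90.5 kb from RHAG, went from 112 to 406, a log2 fold change of 1.85, and CENPQ, 112.1 kb away on its other side, from 3067 to 1831, a change of -0.75 that was not called. RHAG itself lay at 0.00 between them. The neighbours of EPB42, CCNDBP1 and TGM5, were not called, with log2 fold changes of 0.54 and 1.16. The other called neighbours were a Y_RNA copy within ANK1 (19.1 to 59.9) and CCDC151 near EPOR (4.73 to 12.6).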
